A study of Rattus norvegicus with 21 samples.

Results

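Npas2, Clock, Bmal1, Nfil3 and Cry1 are 5 genes of the circadian clock, described here in the livers of male Harlan Sprague-Dawley rats given 2-ethylhexyl diphenyl phosphate (EHDP, also written EDHP in the labels), an organophosphate flame retardant and plasticiser. The members were named as a set, and a probe set was taken for a gene when the platform annotation gave it exactly 1 symbol, equal to the member's. All 5 genes were measured, among 14218 genes in all. They had 8 probe sets, 4 of them for Clock and 1 for each other gene, and the brightest over all 21 arrays stood for the gene.

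The rats were gavaged once a day for 4 days with corn oil alone (vehicle, 6 arrays) or with EHDP in corn oil at 61.2, 122.5, 244.6, 489.2 or 978.5 mg/kg (3 arrays each). Left liver lobe was taken on day 5 and its RNA hybridised to rat expression arrays. No genetic alteration is named for any group, and all share the strain, sex, route and oil. The protocol speaks of 5 vehicle rats, whereas 6 arrays carry dose 0 and all 6 were used. The labels give neither the age of the rats nor the hour of collection, so "late-night" describes when these genes are known to peak and could not be checked in these data.

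The clock of a liver cell is a loop of transcription. BMAL1 pairs with CLOCK or with its close relative NPAS2, and the pair switches on genes that carry an E-box, among them the Per and Cry repressors, the REV-ERB genes Nr1d1 and Nr1d2, and Dbp. CRY1 shuts the pair down. In mouse liver the REV-ERB proteins repress, and the ROR proteins activate, Bmal1, Npas2, Nfil3, Cry1 and, with a smaller daily swing, Clock, whose transcripts are high from late night to early morning. NFIL3 is a repressor that competes with DBP for the same DNA element, the D-box.

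That circuit has a known address in the Bmal1 promoter, which is printed first for that reason, beside those of its 2 alternative partners. RefSeq (build GRCr8) gave a promoter window, 250 bases before to 50 after the start, for 4 of the 5 members. Capitals mark every match to TAGGTCA or TGGGTCA (the ROR and REV-ERB element core), CACGTG (the E-box), or TTATGTAA or TTACGTAA (the D-box), searched on both strands, and to TAGGTTA, a variant added after the Bmal1 window had been seen. No match overlapped another.
Bmal1: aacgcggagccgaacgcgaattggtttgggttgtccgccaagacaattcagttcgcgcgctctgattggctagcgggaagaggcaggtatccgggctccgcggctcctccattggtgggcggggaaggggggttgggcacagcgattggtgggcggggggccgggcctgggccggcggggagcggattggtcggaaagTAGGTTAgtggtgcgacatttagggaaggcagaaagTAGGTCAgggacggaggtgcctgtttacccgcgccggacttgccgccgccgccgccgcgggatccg
Npas2: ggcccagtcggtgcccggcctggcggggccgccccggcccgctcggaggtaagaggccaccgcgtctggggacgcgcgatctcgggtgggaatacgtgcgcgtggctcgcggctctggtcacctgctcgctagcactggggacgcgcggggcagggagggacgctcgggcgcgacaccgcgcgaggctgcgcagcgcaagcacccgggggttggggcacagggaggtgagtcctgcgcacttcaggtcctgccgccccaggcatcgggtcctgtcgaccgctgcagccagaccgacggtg
Clock: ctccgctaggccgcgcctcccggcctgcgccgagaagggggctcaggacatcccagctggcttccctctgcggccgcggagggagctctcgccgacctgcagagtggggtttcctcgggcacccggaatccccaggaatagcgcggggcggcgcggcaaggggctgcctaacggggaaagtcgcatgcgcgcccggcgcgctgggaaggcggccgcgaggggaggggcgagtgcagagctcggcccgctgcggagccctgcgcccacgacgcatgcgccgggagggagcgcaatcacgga
The Bmal1 window is chr1:176766078-176766377 on the plus strand, the Npas2 window chr9:48959315-48959614 on the plus strand, and the Clock window, the first of 2 listed for that gene, chr14:32262500-32262799 on the plus strand. Bmal1 held TAGGTTA with its first base 52 bases upstream of the start and TAGGTCA with its first base 16 bases upstream, both on the gene's strand and both with the letters aaag directly before them. The core TAGGTCA was found in 2.6% of the windows of 27457 genes and TAGGTTA in 1.53%. None of the searched motifs was found in the printed windows of Npas2 and Clock, in the second Clock window or in that of Nfil3, where the share of all windows was 4.03% for TGGGTCA, 6.65% for CACGTG, 0.881% for TTATGTAA and 0.127% for TTACGTAA. Such a match describes letters in a short window and says nothing of binding.

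Across the dose series 4 of the 5 genes fell and Clock did not pass the test at any dose. Npas2 and Nfil3 fell at 244.6, 489.2 and 978.5 mg/kg, Bmal1 at 489.2 and 978.5 mg/kg, and Cry1 at 978.5 mg/kg. No member rose. Signals are log2 values from robust multi-array averaging, so 1 unit is a doubling, and differences were tested with limma over all genes with Benjamini-Hochberg adjustment at 0.05. At 61.2 and 122.5 mg/kg limma called 0 members, where 0.0141% and 0.113% of all genes passed in either direction. At an unadjusted p under 0.05 there was 1 member at 61.2 mg/kg and there were 2 at 122.5 mg/kg, beside 5.48% and 6.06% of all genes. Of the 5 members 2 fell at 244.6 mg/kg, where 0.429% of all genes fell, 3 fell at 489.2 mg/kg, beside 1.39% of all genes, and 4 fell at 978.5 mg/kg, beside 4.07% of all genes. The median log2 difference of the 5 genes was 0.03, -0.21, -0.54, -0.82 and -1.11 from the lowest dose to the highest, while that of all genes lay between -0.02 and 0.01. These 5 comparisons share the same vehicle arrays, so they are not separate evidence.

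**Figure D1:**
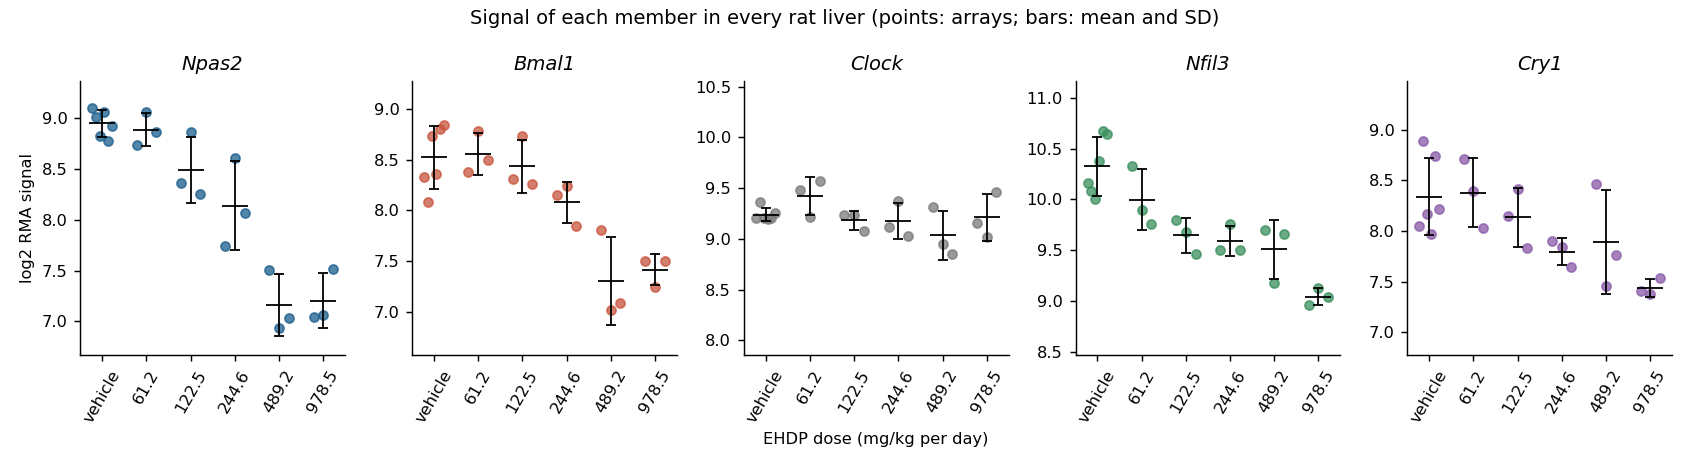
Log2 signal of each member on every array (y axis, equal span in each panel) by dose in mg/kg (x axis), with points for arrays and bars for the mean and SD (6 vehicle arrays, 3 per dose). Npas2 and Bmal1 have their lowest mean at 489.2 mg/kg and Nfil3 and Cry1 at 978.5 mg/kg, 1 Cry1 array at 489.2 mg/kg is as high as 8.46, and the treated arrays of Clock lie between 8.85 and 9.57.

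Npas2, the partner that BMAL1 can use in place of CLOCK, moved farthest. Its vehicle arrays ran from 8.77 to 9.11 with a median of 8.97. They were followed by 8.74, 9.06 and 8.87 at 61.2 mg/kg, by 8.36, 8.86 and 8.25 at 122.5 mg/kg, and by 7.74, 8.61 and 8.07 at 244.6 mg/kg. At 489.2 mg/kg the arrays read 7.50, 6.93 and 7.03, and at 978.5 mg/kg 7.04, 7.06 and 7.52. All arrays from 244.6 mg/kg upward lay below every vehicle array, as did 2 of 3 at 122.5 mg/kg and 1 of 3 at 61.2 mg/kg. Among all genes the share with every array below every vehicle array was 3.07% at 244.6, 2.88% at 489.2 and 6.79% at 978.5 mg/kg. At 244.6 mg/kg Npas2 fell by 0.81 ± 0.17 on the log2 scale (SE, 3 against 6 arrays, 1.76-fold, limma adjusted p = 0.0102). Leaving out replicate 1 of that dose ended the limma call (adjusted p = 0.152), as did leaving out replicate 3 (adjusted p = 0.0538). The mean was 7.16 ± 0.31 at 489.2 mg/kg and 7.20 ± 0.27 at 978.5 mg/kg (SD, n = 3), against 8.95 ± 0.13 in vehicle livers (SD, n = 6), with log2 differences of -1.80 ± 0.17 (3.47-fold, limma adjusted p = 6.9e-06) and -1.75 ± 0.17 (3.36-fold, limma adjusted p = 2.51e-06). By its p Npas2 ranked 4 of 14218 genes at 489.2 mg/kg and 18 at 978.5 mg/kg.

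Bmal1, the subunit common to both pairs, was first called at a higher dose than Npas2. The difference between these 2 genes, tested further below, did not pass at 122.5 or 244.6 mg/kg. Bmal1 stood between 8.08 and 8.84 on the vehicle arrays, with a median of 8.55. Its signals were 8.38, 8.79 and 8.49 at 61.2 mg/kg and 8.31, 8.74 and 8.26 at 122.5 mg/kg, all within the vehicle range. At 244.6 mg/kg they were 8.15, 8.24 and 7.85, with 1 array below the vehicle range (log2 difference -0.44 ± 0.18, limma adjusted p = 0.258). At 489.2 mg/kg they were 7.80, 7.01 and 7.09, and at 978.5 mg/kg 7.51, 7.24 and 7.50 (means 7.30 ± 0.43 and 7.42 ± 0.15, against 8.52 ± 0.31 in vehicle livers). All 6 of these lay below every vehicle array, a separation seen in 2.88% of all genes at 489.2 mg/kg and in 6.79% at 978.5 mg/kg. Bmal1 fell at both doses, with log2 differences of -1.22 ± 0.18 at 489.2 mg/kg (2.33-fold, limma adjusted p = 0.000715) and -1.11 ± 0.18 at 978.5 mg/kg (2.16-fold, limma adjusted p = 0.000686).

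Clock, the partner whose protein also acetylates histones, read 9.19 to 9.36 on the vehicle arrays with a median of 9.20. The treated arrays spread from 8.85, at 489.2 mg/kg, to 9.57, at 61.2 mg/kg, and the range of every dose group overlapped that of the vehicle group. At 978.5 mg/kg the arrays read 9.16, 9.01 and 9.46, of which 2 lay below and 1 above all vehicle arrays. The difference there was -0.03 ± 0.11 with a 95% interval of -0.26 to 0.21 (limma adjusted p = 0.917). At 489.2 mg/kg it was -0.20 ± 0.11 with an interval of -0.43 to 0.03 (limma adjusted p = 0.428). Falls of the size seen in Npas2 and Bmal1 lie outside both intervals. Differences down to -0.26 at 978.5 mg/kg and down to -0.43 at 489.2 mg/kg lie inside them.

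The probe sets of Clock did not all read alike. The second brightest, with a mean of 8.46, had all 3 arrays at 489.2 mg/kg below every vehicle array and a difference of -0.32 ± 0.09 (limma adjusted p = 0.0763 over all probe sets). Among the brightest probe sets of all genes, 2.88% were separated in this way at that dose. The slope of the second brightest over dose rank passed (-0.06 ± 0.02 per dose step, limma adjusted p = 0.0249 over all probe sets), whereas that of the brightest did not (-0.03 ± 0.02 per step, limma adjusted p = 0.406). The other probe sets of Clock had means of 5.47 and 5.18, below the array medians of 6.33 to 6.41, and passed nowhere.

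Nfil3, the D-box repressor, lay farther below its vehicle mean than any other member at 61.2 and 122.5 mg/kg, where no call was made. Vehicle livers gave 10.00 to 10.68, with a median of 10.27. The arrays read 10.33, 9.90 and 9.76 at 61.2 mg/kg, 9.80, 9.68 and 9.46 at 122.5 mg/kg, and 9.50, 9.76 and 9.51 at 244.6 mg/kg. The readings were 9.70, 9.18 and 9.66 at 489.2 mg/kg and 8.96, 9.13 and 9.04 at 978.5 mg/kg. From 122.5 mg/kg on every array lay below all vehicle arrays, a separation seen in 1.24% of all genes at 122.5 mg/kg. The difference at that dose, -0.68 ± 0.16, had an unadjusted limma p of 0.000354 but did not pass over all genes (limma adjusted p = 0.152). Nfil3 fell at the 3 higher doses, with log2 differences of -0.74 ± 0.16 at 244.6 mg/kg (limma adjusted p = 0.011), -0.82 ± 0.16 at 489.2 mg/kg (limma adjusted p = 0.00589) and -1.28 ± 0.16 at 978.5 mg/kg (2.43-fold, limma adjusted p = 3.15e-05). The limma call at 244.6 mg/kg ended when replicate 1 of that dose was left out (adjusted p = 0.101) or replicate 3 was (adjusted p = 0.0602), and the one at 489.2 mg/kg when limma was given only the arrays compared (adjusted p = 0.0528).

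Cry1, the repressor of the BMAL1 pairs, had the widest spread between vehicle rats, from 7.97 to 8.88 with a median of 8.20 (SD 0.38). Its arrays read 8.71, 8.40 and 8.02 at 61.2 mg/kg, 8.15, 8.42 and 7.83 at 122.5 mg/kg, and 7.90, 7.85 and 7.64 at 244.6 mg/kg. At 489.2 mg/kg they were far apart, at 8.46, 7.46 and 7.76, and at 978.5 mg/kg close together, at 7.41, 7.37 and 7.54. The groups at 244.6 and 978.5 mg/kg did not overlap the vehicle group, whereas replicate 1 at 489.2 mg/kg lay inside it. Such a separation was seen in 3.07% of all genes at 244.6 mg/kg and in 6.79% at 978.5 mg/kg. Cry1 fell by 0.90 ± 0.21 at 978.5 mg/kg (1.86-fold, limma adjusted p = 0.0108). It did not pass at 244.6 mg/kg (-0.54 ± 0.21, limma adjusted p = 0.231) or at 489.2 mg/kg (-0.44 ± 0.21, limma adjusted p = 0.352).

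**Figure D2:**
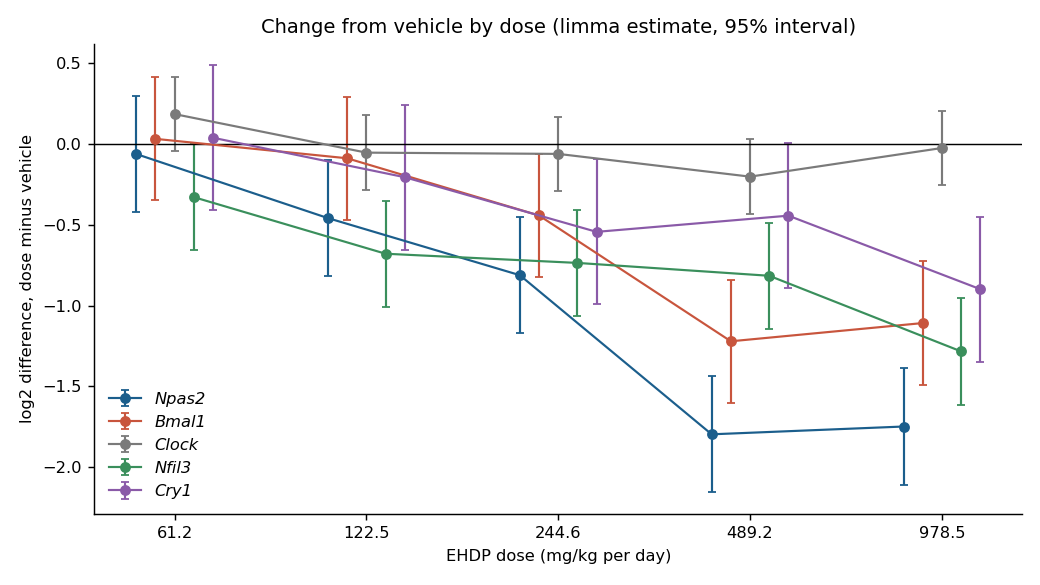
Log2 difference of each member from the vehicle mean (y axis) at each dose in mg/kg (x axis), as limma estimates with 95% intervals from 3 dose and 6 vehicle arrays. Npas2 is lowest from 244.6 mg/kg on, Nfil3 is lowest at 61.2 and 122.5 mg/kg, and the intervals of Clock include 0 at all 5 doses.

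Whether the level followed dose was also tested without the vehicle arrays. Over the 15 treated arrays alone, the log2 signal per dose step, each close to a doubling of dose, had a slope of -0.47 ± 0.06 for Npas2 (limma adjusted p = 0.000331). Slopes were -0.34 ± 0.05 for Bmal1 (limma adjusted p = 0.00107), -0.21 ± 0.05 for Cry1 (limma adjusted p = 0.0221) and -0.20 ± 0.04 for Nfil3 (limma adjusted p = 0.00429). The slope of Clock was -0.06 ± 0.03 (limma adjusted p = 0.451). Hence 4 of 5 members fell with dose among treated rats, as did 1.36% of all genes. The slope of Cry1 no longer passed in limma without replicate 1 or 2 at 61.2 mg/kg (adjusted p = 0.079 and 0.0603) or without replicate 1 or 2 at 978.5 mg/kg (adjusted p = 0.0646 and 0.0728). With vehicle included as the lowest step the same 4 passed, with slopes from -0.39 ± 0.04 for Npas2 to -0.17 ± 0.04 for Cry1, beside 5.12% of all genes that fell.

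Steps between neighbouring doses show where along the series the levels parted. Npas2 was lower at 489.2 than at 244.6 mg/kg, by a log2 difference of -0.98 ± 0.20 (3 against 3 arrays, limma adjusted p = 0.0116), and its arrays at these doses did not overlap, as in 9.14% of all genes. It was the 1 member called at that step, where 1.5% of all genes fell. The limma call ended when replicate 3 at 489.2 mg/kg (adjusted p = 0.058) or replicate 2 at 244.6 mg/kg (adjusted p = 0.0812) was left out, and when only the arrays compared were used (adjusted p = 0.126). Bmal1 had its widest step at the same place, -0.78 ± 0.21, which did not pass (limma adjusted p = 0.0695) but passed in limma without replicate 1 at 489.2 mg/kg (-1.03, adjusted p = 0.0351). Nfil3 differed by -0.08 ± 0.18 there and Cry1 by 0.10 ± 0.25.

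At 978.5 against 489.2 mg/kg the estimates of the members pointed different ways. Limma called 0 of them, beside 0.106% of all genes, and 1 had an unadjusted p under 0.05, beside 13.6% of all genes. That member was Nfil3, at -0.47 ± 0.18 (limma adjusted p = 0.271). Cry1 stood at -0.45 ± 0.25, while Npas2 and Bmal1 stood at 0.05 ± 0.20 and 0.11 ± 0.21. The 95% intervals, from -0.37 to 0.46 for Npas2 and from -0.33 to 0.55 for Bmal1, leave room for change in either direction. The lower steps, 122.5 against 61.2 mg/kg and 244.6 against 122.5 mg/kg, gave 0 calls by limma in the members and in all 14218 genes, and 0 members at an unadjusted p under 0.05, beside 4.74% and 4.76% of all genes.

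Because 1 gene passing and another failing does not show that they differ, 4 differences between members were taken within each array and tested by exact permutation of the 3 dose and 6 vehicle arrays at each dose (two-sided, 84 splits, 20 tests adjusted together). The log2 change of Npas2 was below that of Clock at 244.6, 489.2 and 978.5 mg/kg, by -0.75, -1.59 and -1.72. That of Bmal1 was below that of Clock at 489.2 and 978.5 mg/kg, by -1.02 and -1.08. Each of these 5 had an exact permutation p of 0.0119, the smallest that 84 splits can give (adjusted p = 0.0476), with all 3 arrays beyond every vehicle array. Since 5 tests must reach that smallest p for any to pass, limma was also run on the differences. Its 95% intervals at 978.5 mg/kg were -2.12 to -1.32 for Npas2 minus Clock and -1.48 to -0.68 for Bmal1 minus Clock. That fit held only the 4 differences and gave all of them the same SE of 0.1989. Its intervals and p therefore do not follow the spread of each pair.

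The partners Npas2 and Bmal1 were closer to each other. Npas2 minus Bmal1 stood at -0.37 at 122.5 mg/kg and again at 244.6 mg/kg (exact permutation adjusted p = 0.342 at each). It stood at -0.58 at 489.2 mg/kg (exact permutation adjusted p = 0.0794) and at -0.64 at 978.5 mg/kg (exact permutation adjusted p = 0.0893), neither of which passed. Limma, with the SE shared by all pairs, passed at 489.2 and 978.5 mg/kg (adjusted p = 0.0152 and 0.00696). Those limma calls therefore rest on a spread that is not this pair's own. Nfil3 minus Cry1, the pair of repressors, lay between -0.47 and -0.19 over the 5 doses and passed at none by exact permutation or limma. At 978.5 mg/kg its exact permutation p was 0.214 unadjusted. The limma interval there, -0.78 to 0.01, again used the SE shared by all pairs.

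**Figure D3:**
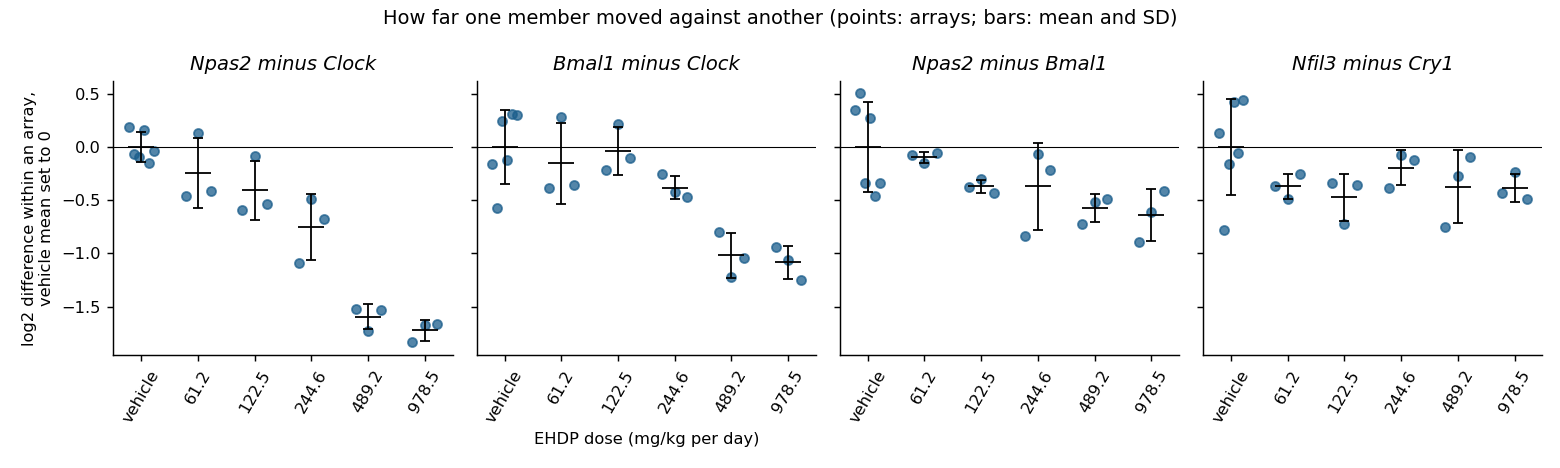
Difference between the log2 signals of 2 members on the same array, with the vehicle mean set to 0 (y axis), by dose in mg/kg (x axis), with points for arrays and bars for the mean and SD. Npas2 minus Clock averages -1.59 at 489.2 and -1.72 at 978.5 mg/kg, while Nfil3 minus Cry1 overlaps the vehicle arrays at all 5 doses.

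Other genes of the clock were called only upward against vehicle, and at every dose most of those measured were not called. Of 32 listed clock and clock-linked genes 27 were measured. Limma called 0 of these lower against vehicle at any dose, while 4, 9 and 11 rose at 244.6, 489.2 and 978.5 mg/kg. The share of all genes that passed in either direction was 2.95%, 2.9% and 10.2% at those doses. These shares include the 0.429%, 1.39% and 4.07% of all genes that fell. The median log2 difference of the 27 genes was 0.11, 0.19 and 0.35 there. Genes called at 2 or more doses were the repressor genes Per3 and Cry2, Timeless, a replication fork gene linked to the clock, the REV-ERB genes Nr1d1 and Nr1d2, the D-box activators Dbp and Tef, the kinase gene Wee1, Noct, a deadenylase-family gene of clock output, and Por, the reductase that feeds electrons to cytochrome P450. Dbp, whose product shares the D-box with NFIL3, averaged 8.46 ± 1.44 at 489.2 and 8.65 ± 0.56 at 978.5 mg/kg (SD, n = 3), against 5.78 ± 0.24 in vehicle livers (SD, n = 6), and rose at both doses (limma adjusted p = 0.00226 and 0.000478). Its SD at 489.2 mg/kg was above that of any member there. At 978.5 mg/kg Cry1 fell (-0.90 ± 0.21) and its paralogue Cry2 rose (0.62 ± 0.13, limma adjusted p = 0.00456). Timeless was not monotone, with 0.82 ± 0.16 at 244.6, 0.04 ± 0.16 at 489.2 and 0.63 ± 0.16 at 978.5 mg/kg. Per1 and Per2 passed at no dose, with 0.12 ± 0.15 and 0.07 ± 0.07 at 978.5 mg/kg (limma adjusted p = 0.646 and 0.602).

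The REV-ERB and ROR genes, whose products bind the element printed above, were on that list. Nr1d1, which encodes REV-ERB alpha, averaged 7.83 ± 0.32 at 244.6, 8.14 ± 0.77 at 489.2 and 8.26 ± 0.15 at 978.5 mg/kg (SD, n = 3), against 6.44 ± 0.41 in vehicle livers (SD, n = 6), and rose at these 3 doses (limma adjusted p = 0.0188, 0.00503 and 0.00121). Nr1d2, which encodes REV-ERB beta, averaged 9.60 ± 0.40 at 489.2 and 9.80 ± 0.10 at 978.5 mg/kg (SD, n = 3), against 8.36 ± 0.26 in vehicle livers (SD, n = 6), and rose at both doses (limma adjusted p = 0.00611 and 0.000817). Rora, which encodes a ROR activator, differed by -0.51 ± 0.21 at 489.2 and by 0.35 ± 0.21 at 978.5 mg/kg and passed at neither (limma adjusted p = 0.263 and 0.334). Whether these levels bear on the members was not tested.

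**Figure D4:**
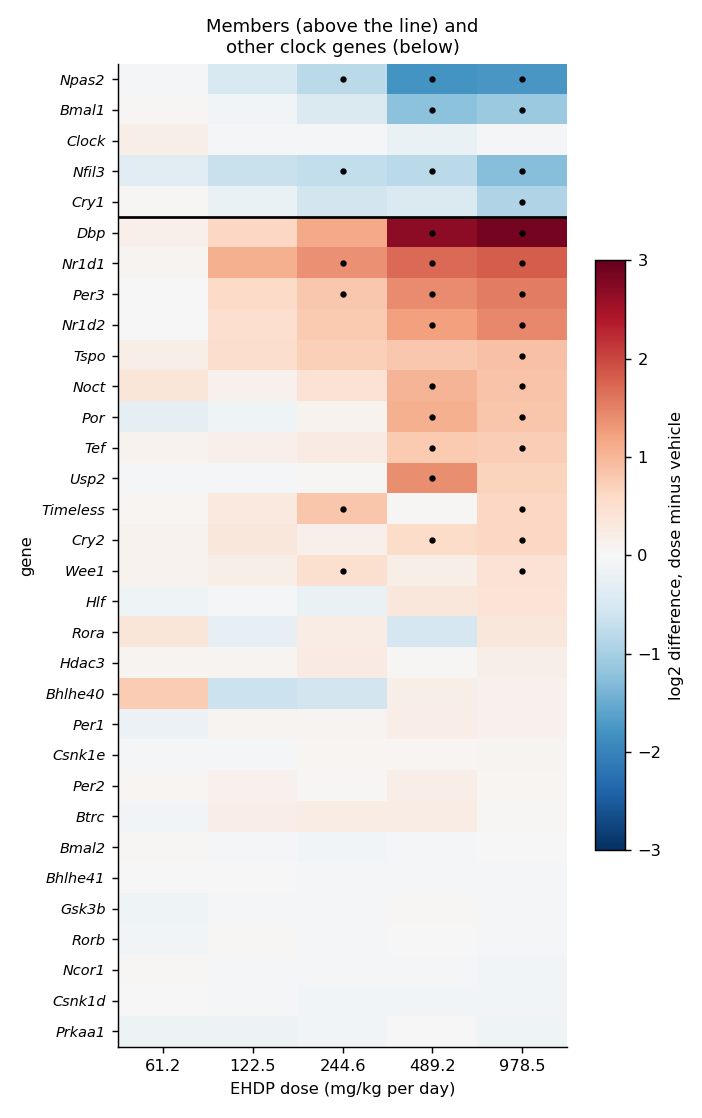
Log2 difference from vehicle (colour, blue lower and red higher) for the 5 members, above the line, and the 27 other clock genes, below it, at each dose in mg/kg (x axis), with a dot where limma's adjusted p was under 0.05. All dots above the line are on blue cells, at 2, 3 and 4 members from 244.6 to 978.5 mg/kg, and those below are on red cells.

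Among themselves the members were most alike in Npas2 and Bmal1, with a Pearson r of 0.90 over the 21 arrays, and least alike in Clock and Nfil3, at 0.29. The arrays share their dose groups, so these values mostly restate the dose series and are given as a description. After each group's mean was subtracted, r was 0.39 for Npas2 with Bmal1, while Npas2 with Clock gave 0.58, Clock with Cry1 0.47 and Nfil3 with Cry1 0.45. All 10 such values were above 0, the lowest being 0.16 for Npas2 with Nfil3.

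In this paragraph the second value in brackets is r within groups, after each group's mean was subtracted. Over the same 21 arrays the genes most like Npas2 were Coro1c (r of 0.92, 0.01 within groups), Pnrc1 (0.91, 0.64) and Tubb2a (0.91, 0.31). The least like it was Hdc, the enzyme that makes histamine (-0.95, -0.75). Bmal1 was most like Npas2 (0.90, 0.39), Plin2, a lipid droplet coat protein (0.90, 0.55), and Tubb2a (0.89, 0.45), and least like Vav2 (-0.91, -0.61). Nfil3 was most like Synrg (0.89, 0.74), Dusp6, a phosphatase of ERK kinases (0.88, 0.77), and Dlc1 (0.87, 0.42), and least like Osbpl11 (-0.90, -0.52). Cry1 was most like Lgalsl (0.81, 0.68), Nucb2 (0.79, 0.46) and Dexi (0.79, 0.52), and least like Nr1d1 (-0.87, -0.83). Such within-group values come from the arrays on which these genes were picked, so they are not separate evidence. Clock, whose mean differed least from vehicle at 122.5 mg/kg and above, was most like Zbtb21 (0.82, 0.75), Rimoc1 (0.77, 0.73) and Klhl9 (0.76, 0.69). It was least like Eno2 (-0.77, -0.78).

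Array medians lay between 6.33 and 6.41, while each array correlated with the rest at 0.988 to 0.994 on average, lowest in vehicle replicate 6. The 8 hepatocyte markers, Alb and Ttr among them, averaged 13.77 to 13.91 at 978.5 mg/kg and 13.74 to 13.90 in vehicle livers, with 0 called by limma. All 6 measured macrophage markers had lower means at 978.5 mg/kg, 1 of them called, and their average per array was 8.79 to 9.16, against 9.31 to 9.98 in vehicle livers. All 4 red blood cell markers had lower means there, 3 of them called, with averages of 8.42 to 9.19 against 9.23 to 10.29 in vehicle livers. Of the 18 measured markers of lymphocytes, stellate cells, endothelium and bile duct limma called 0 lower and 1 higher at 978.5 mg/kg. At 489.2 mg/kg it called 0 markers of any list in either direction. In bulk liver, fewer cells of a type and less RNA per cell cannot be told apart, and the part of these lists in the members' falls was not tested.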

How the data were processed

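Liver RNA of 21 rats was measured on 1-colour arrays. The values used are log2 signals per probe set as deposited by the authors, made by robust multi-array averaging (RMA) per the submitters' processing notes, which name no version. Of 31099 probe sets, 20832 had exactly 1 gene symbol in the platform annotation, 436 had several and 9831 none, and only the first kind was named. Each of 14218 genes was represented by its brightest probe set, with no filter or further scaling.

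The main test was limma 3.58.1 (R 4.3.3), with 1 mean per group over all 21 arrays, eBayes and Benjamini-Hochberg adjustment over all genes at 0.05. Trends used dose rank, and differences between members an exact permutation test in Python 3.11.15. The limma step was tested on simulated data. The number of arrays limits the precision. Members, gene lists, motifs and tests were chosen with earlier results of these data known. Named outside the members were the 3 most and 1 least correlated genes of each (placeholder symbols left out), clock genes called at 2 or more doses, and those a member is set beside. Per1 and Per2 were added as uncalled genes of the Per family. Alternatives covered probe set choice, level filter, floor, scaling, eBayes options, array weights, arrays included, replicate block, a 1.5-fold minimum and dose in mg/kg.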

Additional observations from a re-analysis of the deposited data

Results flagged for a closer look

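Clock read 9.36 in vehicle replicate 2, apart from the other vehicle arrays, the nearest of which was 9.25. The gap took 0.668 of the group's range, and it was the 1 such case in 12 checks of the vehicle group. With 12 checks made, 1 such case can arise by chance.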

How the results depend on the processing

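Of 1750 alternative values for 55 combinations of member and comparison, 1732 kept their side of the threshold, 15 lost a call, 3 gained one and 0 called values changed sign. No alternative ended the falls of Npas2 and Bmal1 at 489.2 mg/kg or of Npas2, Bmal1, Nfil3 and Cry1 at 978.5 mg/kg. Nfil3 passed at 122.5 mg/kg with array weights (-0.59, limma adjusted p = 0.0109), so that 1 member was called there. With the replicate block Nfil3 no longer passed at 244.6 mg/kg (-0.49, limma adjusted p = 0.0898) or 489.2 mg/kg (-0.57, limma adjusted p = 0.0531), which left 1 call at 244.6 mg/kg. Replicate numbers 4, 5 and 6 occur only in the vehicle group, so with the block those arrays no longer entered any difference from vehicle. Nfil3 read 10.38, 10.68 and 10.65 on them, against 10.16, 10.09 and 10.00 on vehicle replicates 1, 2 and 3. The labels tie no replicate number to a shared litter, day or batch, and correlations of same-numbered arrays ran from -0.23 to 0.369, so the numbers were not taken as pairs. As a hint from the data, not the design, 11 of 18 arrays correlated best with their own number. Most of the arrays they were compared with bore another number. For 489.2 against 244.6 mg/kg, array weights gave 2 calls and the arrays compared alone 0. The slope of Cry1 over treated arrays was lost with a floor (limma adjusted p = 0.0508). Leaving out 1 array gave 0 calls at 61.2 and 122.5 mg/kg, 0 to 2 at 244.6 mg/kg, always 3 at 489.2 mg/kg and always 4 at 978.5 mg/kg, and it gave 0 to 2 at 489.2 against 244.6 mg/kg, 0 at the other steps, 4 for the trend and 3 to 4 for the trend of treated arrays.

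For differences between members, leaving out 1 array gave 0 to 3 doses passing for Npas2 minus Clock, 0 to 2 for Bmal1 minus Clock and 0 for the other pairs, because the smallest p rises to 0.0179 with 56 splits or 0.0357 with 28. Limma, with an SE shared by all pairs, passed Npas2 minus Bmal1 at 2 doses, against 0 by exact permutation. Over all genes limma's count ran, without the 1.5-fold minimum, from 0 to 3 around 2 at 61.2 mg/kg, from 4 to 357 around 16 at 122.5 mg/kg, from 112 to 766 around 420 at 244.6 mg/kg, from 157 to 514 around 412 at 489.2 mg/kg and from 702 to 1594 around 1457 at 978.5 mg/kg. It ran from 41 to 339 around 242 for 489.2 against 244.6 mg/kg, from 0 to 126 around 15 for 978.5 against 489.2 mg/kg, from 0 to 477 around 0 for 244.6 against 122.5 mg/kg, from 1088 to 1895 around 1589 for the trend and from 246 to 821 around 441 for that of treated arrays. The number of arrays limits the precision of each value.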
